A study of Rattus norvegicus with 6 samples.

Results

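The genes described here belong to the mGluR6 cascade of retinal bipolar cells and to the marker set of those cells. The 9 genes were chosen by name: the receptor gene Grm6, its accessory genes Nyx, Gpr179, Rgs11 and Gng13, the channel gene Trpm1, and the bipolar cell genes Prkca, Pcp2 and Cabp5. Of these, 8 were found among the 28358 genes of the tables. No row was matched to Rgs11, which is not analysed here. All 8 passed the filter on low counts, as did 13242 genes in all.

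ON bipolar cells receive glutamate from photoreceptors through mGluR6, a metabotropic receptor that works through the G protein Go. Glutamate released in darkness keeps the cation channel TRPM1 closed through this cascade. Light lowers the release of glutamate, the channel opens and the cell depolarises. Loss of GRM6, TRPM1, NYX or GPR179 causes congenital stationary night blindness in people, in which the rod signal does not pass to bipolar cells.

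The samples were neuroretinas of male rats aged 14 months, all of the Goto-Kakizaki (GK) strain, which is lean and spontaneously diabetic, and RNA sequencing was used to measure their transcripts. In 3 samples the eye had received 5 µL of microspheres of the degradable polymer PLGA loaded with 6.2 µg of spironolactone, which blocks the mineralocorticoid receptor. In the other 3 samples the same microspheres carried no drug (non-loaded). Retinas were taken 2 months after that single intravitreal injection. All samples came from the diabetic strain and all eyes were injected, so neither a healthy strain nor an uninjected eye is part of the comparison. Nothing in the labels ties the samples to separate animals, and the p-values therefore reflect only the spread seen among 6 samples, part of which may be technical.

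Libraries held 10575218, 12589467 and 11174930 counts with spironolactone and 9996198, 11572838 and 11966770 with non-loaded microspheres. The members together took 17071 to 20682 counts of a spironolactone library and 17586 to 19234 of a non-loaded library. The members' expected counts were whole numbers, to the 2 decimals deposited, in every library. This is not particular to them, since only 0.437% to 0.469% of a library's genes had a fractional one. In the GRCr8 annotation, Gng13 overlaps Chtf18 and Pcp2 overlaps Pet100. Whether counting used strand is not stated, and without it reads from such a stretch cannot be told apart.

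The tissue label was checked against marker genes. Isl1, a transcription factor of bipolar cells and other inner retinal neurons, averaged 88.7 ± 7.44 TPM (RSEM's level per length, scaled to a common library total; SD over 6 libraries). The kainate receptor gene Grik1, a marker of OFF bipolar cells, was present at a lower level of 55.8 TPM. Scgn, a calcium-binding protein gene of bipolar cells, stood at 38.6 TPM. Otx2, which bipolar cells and photoreceptors use, was listed at 0 in all 6 libraries; a listed 0 can be a failed estimate and is not read here as absence. The retina was sequenced in bulk, so fewer cells of a type and less RNA per cell cannot be told apart.

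Per length, the bipolar genes spanned a wide range. Pcp2, which encodes a GoLoco protein that binds the alpha subunit of Go and is known from Purkinje cells and ON bipolar cells, was the most abundant at 580.6 ± 42.1 TPM (SD over 6 libraries), above 98.8% of tested genes. Gng13 followed at 321.6 ± 34.8 TPM, then Prkca at 238.8 ± 17.5 TPM and Trpm1 at 180.7 ± 11.8 TPM. Gpr179 stood at 99.0 ± 4.81 TPM and Grm6 at 69.1 ± 1.82 TPM. Cabp5 at 62.8 ± 3.93 TPM and Nyx at 25.2 ± 3.22 TPM were the lowest, and Nyx lay at the 49.8th percentile of tested genes.

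Each gene of this order lay above the next in all 6 libraries, but the ranges of Grm6 and Cabp5 overlapped, with 66.5 TPM as the lowest value of Grm6 and 67.7 TPM as the highest of Cabp5. Trpm1 therefore exceeded the receptor gene Grm6 by 2.34 to 2.87 times within a library, and Gpr179 exceeded it by 1.33 to 1.56 times. Grm6 in turn exceeded Nyx by 2.31 to 3.08 times. The place of Gng13 rests on its length. Its transcript has 354 bases, of which RSEM counted 195 as effective, 55.1% of the whole, against 95.5% for Prkca. By the full length, an alternative chosen after seeing the data, Gng13 had 97.5 CPM per kilobase (CPM, counts after TMM scaling for library size) and Prkca 125.6, which reverses their order, while the ratio of Gng13 to Prkca was 1.35 on the TPM scale.

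**Figure D1:**
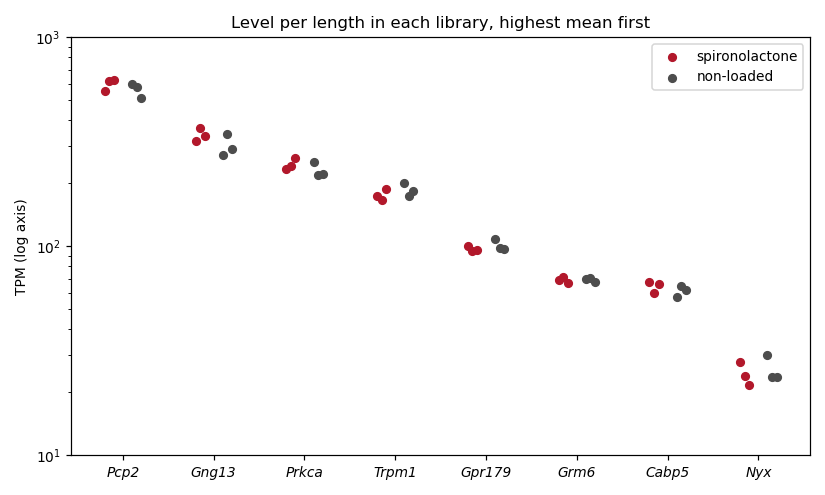
Level per length (TPM, log axis) of the 8 bipolar cell genes, highest mean first, in 3 spironolactone libraries (red, left of each pair) and 3 non-loaded libraries (grey, right). Means fall from 580.6 TPM for Pcp2 to 25.2 TPM for Nyx, and the ranges of both groups overlap for every gene.

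Sequence features that the choice of genes did not use were read from RefSeq tables of the GRCr8 build, another build than rn6, which the submitters' processing notes name. Of the 8 members with values, 6 were matched to a promoter. The 250 bases before the gene start were searched on both strands for TAATCC, the core bound by the photoreceptor and bipolar factors CRX and OTX2. It was found for Trpm1 and Nyx, 2 of the 6, and in 6.3% of all 33469 promoters. TAATTA, a homeodomain site, was found in 0 of the 6 and in 4.9% of all promoters. A match is a description of the letters and not of binding. The stretches of Trpm1 (chr1:127130436-127130685, plus strand) and Nyx (chrX:11974717-11974966, minus strand) are shown because they carry the motif, in capitals, and that of Grm6 (chr10:35668753-35669002, plus strand), which has none, is shown beside them.
Trpm1: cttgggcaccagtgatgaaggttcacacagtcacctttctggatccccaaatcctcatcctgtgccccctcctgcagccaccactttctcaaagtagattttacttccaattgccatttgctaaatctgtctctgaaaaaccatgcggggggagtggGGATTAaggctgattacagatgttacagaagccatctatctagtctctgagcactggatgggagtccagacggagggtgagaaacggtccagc
Nyx: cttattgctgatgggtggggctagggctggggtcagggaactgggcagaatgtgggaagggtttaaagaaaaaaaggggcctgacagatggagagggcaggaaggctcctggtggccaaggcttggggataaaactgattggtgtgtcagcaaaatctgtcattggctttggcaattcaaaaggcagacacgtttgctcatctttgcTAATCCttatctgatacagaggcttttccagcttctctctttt
Grm6: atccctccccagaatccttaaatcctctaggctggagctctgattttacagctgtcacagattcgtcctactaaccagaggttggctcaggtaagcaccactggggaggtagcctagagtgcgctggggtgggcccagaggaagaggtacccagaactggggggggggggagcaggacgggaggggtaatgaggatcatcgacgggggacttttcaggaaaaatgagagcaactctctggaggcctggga
In Trpm1 the motif lies on the opposite strand and starts at position −93 from the gene start, and in Nyx it starts at −43.

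Trpm1 also spans the microRNA gene Mir211, and Trpm3 spans Mir204. Their mature 5p arms are shown because they share the seed (bases 2 to 8, in capitals) and tie 2 genes of the TRPM family to the same seed. The arms have 22 bases, and the difference between them is U17A, counted from the 5′ end with the base of miR-211 first.
rno-miR-211-5p: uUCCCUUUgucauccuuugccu
rno-miR-204-5p: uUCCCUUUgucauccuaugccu
Levels of the hairpin genes Mir211 and Mir204 are not given here, and mature microRNAs were not measured by these mRNA libraries.

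The study's single comparison sets spironolactone-loaded against empty microspheres. None of the 8 passed the test: 0 were called at an adjusted p of 0.05 (edgeR quasi-likelihood test, Benjamini-Hochberg over all tested genes), where 2.63% of the 13242 tested genes were called. At an unadjusted p of 0.05 the count was also 0, where 15.8% of all tested genes passed. DESeq2, limma-voom and limma on log2(TPM + 1) likewise called 0 of the 8, also unadjusted. The CPM of the groups overlapped for all 8, while they did not overlap for 20.9% of all tested genes. Log2 fold changes were positive for 4 members and negative for 4, with a median of 0.02, against −0.0026 over all tested genes.

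Grm6 encodes mGluR6 itself, the glutamate receptor at the dendritic tips. It measured 157.6, 169.2 and 156.0 CPM with spironolactone, against 163.8, 171.0 and 155.4 CPM with non-loaded microspheres. The highest and the lowest library were both non-loaded, and all spironolactone values lay between them. The mean was 160.9 ± 7.23 CPM with spironolactone and 163.4 ± 7.82 CPM with non-loaded microspheres (SD, n = 3 each), a log2 fold change of −0.02 ± 0.06 (SE; edgeR adjusted p = 0.918). The 95% interval of the fold ran from 0.902 to 1.08.

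Nyx encodes nyctalopin, a leucine-rich repeat protein on the cell surface that is needed to hold TRPM1 at the dendritic tips. Its level was 27.1, 24.1 and 21.5 CPM with spironolactone and 30.1, 24.3 and 23.2 CPM with non-loaded microspheres. Both groups spread widely and shared most of their range. The log2 fold change was −0.09 ± 0.12 (edgeR adjusted p = 0.765), and at 238 to 302 counts per library its interval was the widest of the set on the log2 scale, from 0.791 to 1.11-fold.

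Gpr179 encodes an orphan receptor that anchors the RGS proteins which end the signal of Go. It gave 356.9, 353.5 and 354.3 CPM with spironolactone, against 396.6, 374.4 and 351.9 CPM with non-loaded microspheres. The spironolactone libraries were nearly level, and 1 of the 3 non-loaded libraries lay below them. The log2 fold change was −0.08 ± 0.06 (edgeR adjusted p = 0.572), with an interval of 0.871 to 1.03-fold. Gng13 encodes a G protein gamma subunit, a partner of the beta subunit of Gnb3 in ON bipolar cells. It measured 32.8, 40.8 and 35.9 CPM with spironolactone and 29.2, 37.8 and 30.5 CPM with non-loaded microspheres. The groups overlapped through the second non-loaded library, and the log2 fold change was 0.17 ± 0.11 (edgeR adjusted p = 0.489). It was 0.080 without spironolactone replicate 2 and 0.289 without non-loaded replicate 2. The interval, 0.959 to 1.32-fold, does not reach a 1.5-fold change.

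Trpm1 encodes the channel at the end of the cascade. It measured 450.7, 451.6 and 500.5 CPM with spironolactone, against 537.1, 483.0 and 482.6 CPM with non-loaded microspheres. The third spironolactone library lay above 2 of the non-loaded ones, and the highest value was that of the first non-loaded library. The log2 fold change was −0.10 ± 0.06 (edgeR adjusted p = 0.486), with an interval of 0.851 to 1.02-fold. TRPM1 is also known from melanocytes and pigment epithelium. The 6 tested of 8 pigment epithelium markers summed to 110.9, 93.8 and 47.0 CPM with spironolactone and 114.5, 123.2 and 96.7 CPM with non-loaded microspheres, with 0 called by edgeR and 2 lower at an unadjusted p of 0.05. The part of these cells in the Trpm1 level was not tested.

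Prkca, Pcp2 and Cabp5 mark bipolar cells. Prkca encodes protein kinase C alpha, the standard marker of rod bipolar cells, which some amacrine cells share. It gave 426.4, 456.6 and 492.6 CPM with spironolactone and 477.3, 427.1 and 405.3 CPM with non-loaded microspheres. The highest library was a spironolactone one and the lowest a non-loaded one, with overlap between (log2 fold change 0.07 ± 0.07, edgeR adjusted p = 0.677, interval 0.949 to 1.16-fold). Pcp2 measured 88.4, 105.6 and 103.3 CPM with spironolactone, against 98.4, 98.7 and 83.4 CPM with non-loaded microspheres. Its groups overlapped, since the first spironolactone library lay below 2 non-loaded ones (0.09 ± 0.08, edgeR adjusted p = 0.655, interval 0.946 to 1.19-fold). Cabp5 encodes a calcium-binding protein of rod bipolar cells and some cone bipolar cells. It measured 53.1, 48.9 and 53.4 CPM with spironolactone and 46.5, 53.8 and 49.3 CPM with non-loaded microspheres. The highest and the lowest Cabp5 values were both non-loaded (0.05 ± 0.08, edgeR adjusted p = 0.813, interval 0.922 to 1.17-fold).

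**Figure D2:**
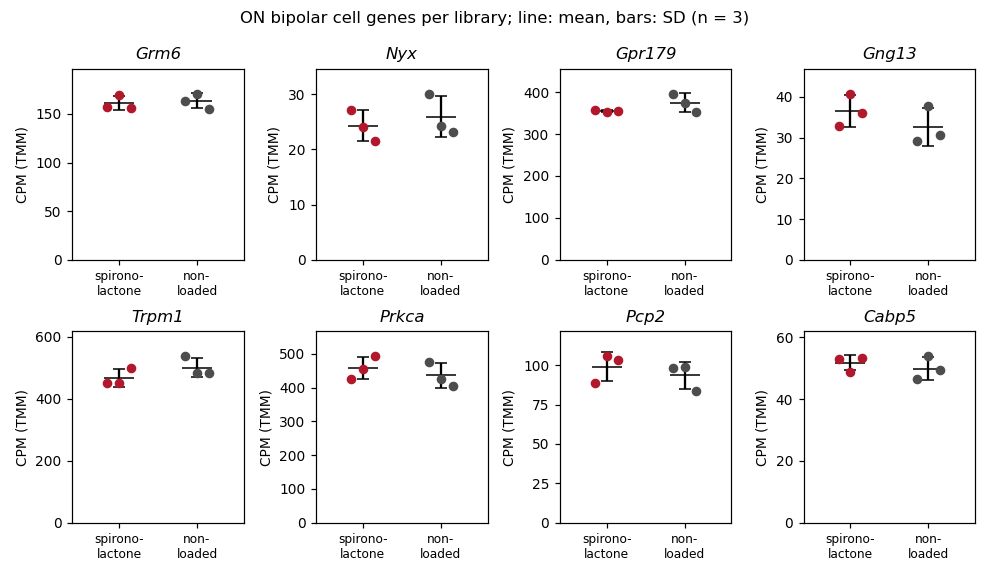
Normalised counts (CPM, TMM factors; axes start at 0) of the 8 genes in each library, spironolactone (red) left of non-loaded (grey), with the mean as a line and the SD as bars (n = 3). The groups overlap in every panel, as for Grm6 with a mean of 160.9 CPM with spironolactone and 163.4 CPM with non-loaded microspheres.

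These intervals limit how large a difference the data leave possible: for every member they stayed within 0.791-fold and 1.32-fold. In simulated counts of 13144 genes with the same library sizes, the test recovered 45.2% of genes changed 1.25-fold and 89.2% of those changed 1.5-fold. These rates are for genes drawn outside the members and above a floor on mean CPM. They do not cover the lowest genes and are not the members' own. Among the members, only the intervals of Gng13 (up to 1.32-fold) and Nyx (down to 0.791-fold) reach a 1.25-fold change. Smaller changes could have been missed in any member.

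**Figure D3:**
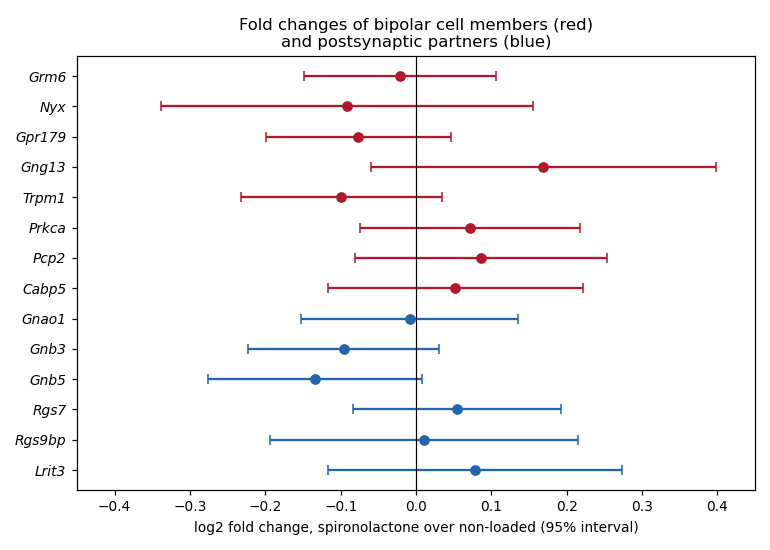
Log2 fold change (spironolactone over non-loaded) with its 95% interval for the 8 bipolar members (red) and the 6 postsynaptic partners (blue). All 14 intervals include 0, and the widest on this log2 scale is that of Nyx.

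The members differed in how steady they were between libraries. Within groups the SD of log2 CPM was 0.061 for Gpr179 and 0.067 for Grm6, against a median of 0.122 over all tested genes. It was 0.178 for Gng13 and 0.183 for Nyx. Counting noise alone would give an SD of 0.022 for Gpr179, 0.034 for Grm6, 0.073 for Gng13 and 0.086 for Nyx, so each varied by 1.99 to 2.71 times its counting noise. Prkca had the largest such ratio, at 5.56 times. The members did not all vary together: the log2 CPM of 18 of the 28 pairs were positively correlated over the 6 libraries, with Pearson r between −0.561 (Trpm1 and Gng13) and 0.787 (Prkca and Pcp2). All pairs share the same 6 libraries and their scaling, and these r are a description. The first non-loaded library shows the divergence, with the highest value of Trpm1, Gpr179 and Nyx and the lowest of Gng13 and Cabp5. The genes whose log2 CPM came closest to the members' mean pattern over the 6 libraries were Epb41l3 (r = 0.999), L1cam (0.986), Med18 (0.982), Nod2 (0.978) and Pde11a (0.972). They were picked as the highest of all tested genes over 6 points, so such values are no sign of a relation.

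Of the postsynaptic partners of the cascade 0 of 6 were called by edgeR (0 also at an unadjusted p of 0.05 and with DESeq2), and their median log2 fold change was 0.0010. Gnao1, the alpha subunit of Go, measured 348.5, 389.7 and 389.0 CPM with spironolactone, against 386.8, 405.2 and 342.4 CPM with non-loaded microspheres (log2 fold change −0.01 ± 0.07, edgeR adjusted p = 0.972). Gnb3 and Gnb5 encode G protein beta subunits, the second of which binds RGS proteins of the RGS7 family. Gnb5 had the smallest p of these 6, with 225.8, 213.4 and 186.6 CPM with spironolactone and 235.8, 226.5 and 224.5 CPM with non-loaded microspheres (−0.13 ± 0.07, edgeR adjusted p = 0.351). Only the first spironolactone library overlapped the non-loaded ones. Gnb3 averaged 209.4 ± 10.4 CPM with spironolactone and 223.8 ± 10.1 CPM with non-loaded microspheres (−0.10 ± 0.06, edgeR adjusted p = 0.473). Rgs7, the gene of the second RGS protein of this synapse, averaged 84.3 ± 1.84 CPM with spironolactone and 81.2 ± 5.36 CPM with non-loaded microspheres (0.05 ± 0.07, edgeR adjusted p = 0.752). Lrit3, a leucine-rich repeat gene needed for TRPM1 and nyctalopin at the synapse, averaged 62.1 ± 8.28 CPM with spironolactone and 58.9 ± 4.84 CPM with non-loaded microspheres (0.08 ± 0.09, edgeR adjusted p = 0.745). Per effective length, the TPM of Gng13 over that of its partner Gnb3 gave a ratio of 1.12, 1.31 and 1.31 in spironolactone libraries and of 0.98, 1.24 and 0.934 in non-loaded ones. With the full annotated length the ratio was 0.678, 0.826 and 0.799 in spironolactone libraries and 0.597, 0.753 and 0.571 in non-loaded ones, so the order of the 2 genes depended on the length used. Most of these partners are also expressed in other retinal neurons, so their levels are not those of bipolar cells alone.

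Of 24 other bipolar cell genes, 23 were tested and 0 were called by edgeR, with a median log2 fold change of −0.04. DESeq2, which gave an adjusted p to only 19 of the 23, also called 0. At an unadjusted edgeR p of 0.05, 3 of the 23 passed, where 15.8% of all tested genes did. The GABA receptor rho subunit gene Gabrr2 averaged 77.5 ± 4.13 CPM with spironolactone and 87.5 ± 5.34 CPM with non-loaded microspheres (edgeR adjusted p = 0.205). Vsx1, a transcription factor of cone bipolar cells, averaged 34.9 ± 3.96 CPM with spironolactone and 41.2 ± 2.75 CPM with non-loaded microspheres (edgeR adjusted p = 0.218). The third, Vstm2b, averaged 36.4 ± 1.43 CPM with spironolactone and 42.0 ± 4.94 CPM with non-loaded microspheres (edgeR adjusted p = 0.298). Isl1 had the next smallest p, with overlapping groups (0.12 ± 0.07, edgeR adjusted p = 0.408).

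On the photoreceptor side of the same synapse, 0 of 9 genes were called by edgeR. An unadjusted p below 0.05 was found for 5 of the 9, where 15.8% of all tested genes had one. Cacnb2, a calcium channel beta subunit gene, measured 129.2, 146.8 and 161.5 CPM with spironolactone and 125.3, 122.2 and 114.2 CPM with non-loaded microspheres (0.28 ± 0.07, edgeR adjusted p = 0.0593). Elfn1, whose product reaches across the cleft to mGluR6, measured 207.9, 216.0 and 211.3 CPM with spironolactone and 169.2, 180.9 and 196.0 CPM with non-loaded microspheres (0.22 ± 0.06, edgeR adjusted p = 0.077). Cabp4, a calcium channel regulator, had a log2 fold change of 0.22 ± 0.06 (adjusted p = 0.0911) and the vesicular glutamate transporter gene Slc17a7 one of −0.20 ± 0.06 (adjusted p = 0.0889). The CPM of the groups did not overlap for these 4 genes. Of all 9, groups did not overlap for 5 genes higher and 1 lower with spironolactone, where 20.9% of all tested genes did not overlap. DESeq2 called all 4 of them (3 higher and 1 lower, adjusted p between 0.00997 and 0.0403), so their side of the threshold depended on the tool. The fifth was Egflam, the gene of pikachurin (0.12 ± 0.06, edgeR adjusted p = 0.297).

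In the same libraries 5 of 10 rod markers were called lower by edgeR, where 101 of all 13242 tested genes were. Among them were Gnat1, Nr2e3, Rom1 and Reep6. The list had a median log2 fold change of −0.31 but was not uniform. Its values ran from −0.78 for Gnat1 to 0.08, with 9 negative and 1 positive, and adjusted p reached 0.601. The rod transducin gene Gnat1 measured 5570.2, 6540.8 and 5481.5 CPM with spironolactone, against 11363.0, 11180.1 and 7662.2 CPM with non-loaded microspheres. Markers of the other cell types of the retina that were counted gave 0 edgeR calls each: cones (0 of 8 tested), Müller glia (0 of 8), amacrine and horizontal cells (0 of 10), ganglion cells (0 of 8), microglia (0 of 6) and endothelium (0 of 5). Of lens markers, a check on tissue from outside the retina, 0 of 1 tested was called. With 2.63% of all tested genes called, lists this short can hold 0 calls without differing from that share. At an unadjusted p of 0.05 the counts were 1 for cones, 3 for amacrine and horizontal cells and 0 for Müller glia, ganglion cells, microglia, endothelium and lens. Over all tested genes 15.8% passed at that level.

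**Figure D4:**
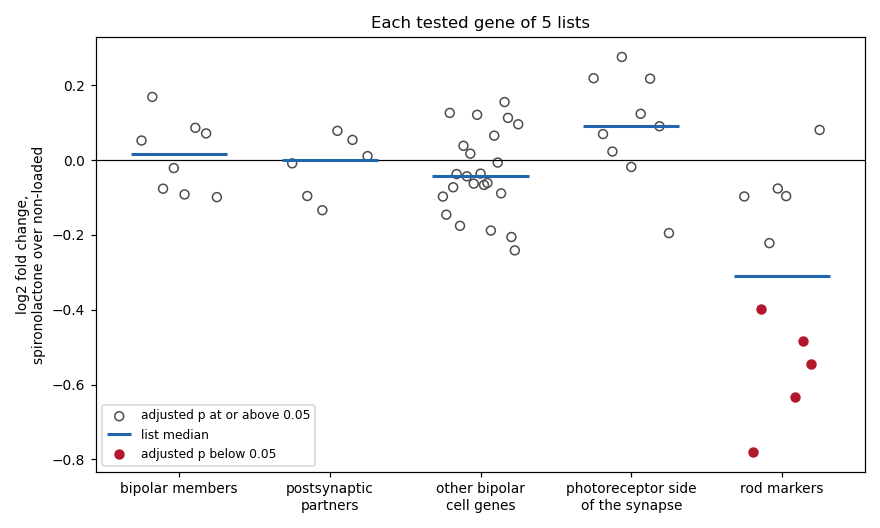
Log2 fold change (spironolactone over non-loaded) of each tested gene in 5 lists, with the list median as a blue line and genes with an adjusted p below 0.05 filled red. The bipolar members lie between −0.10 and 0.17, and filled points appear among the rod markers, whose median is −0.31.

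Among relatives of the members in the same gene families, 39 of 44 were tested and 0 were called by edgeR, where 2.63% of all tested genes were. At an unadjusted p of 0.05, 9 passed (3 higher and 6 lower), where 15.8% of all tested genes did. Groups did not overlap for 3 higher and 8 lower, where 20.9% of all tested genes did not overlap. The median log2 fold change of the relatives was 0.01. DESeq2 called 2 of these relatives, Cabp4 higher and Gngt2 lower, and limma-voom called 0. Grm6 was the most abundant metabotropic glutamate receptor gene per length at 69.1 TPM, with Grm4 next by mean at 27.3 TPM and Grm2 at 19.6 TPM. The place of Grm4 was unsteady: its TPM ran from 14.3 to 41.4, while its CPM lay between 15 and 18. In non-loaded replicate 1 Grm4, at 14.3 TPM, lay below Grm2 at 20.3 TPM. Trpm1 exceeded Trpm3 (50.5 TPM), Trpm7 (38.3 TPM) and Trpm2 (26.3 TPM). Among the protein kinase C genes Prkca stood above Prkce (96.8 TPM) and Prkcb (67.0 TPM). Cabp5, by contrast, lay below Cabp4 (594.8 TPM), a photoreceptor gene, and Cabp1 (377.7 TPM). Gngt2, Gng10 and Cabp4 were the relatives with the smallest p. Gngt2, the cone transducin gamma subunit gene, averaged 16.0 CPM with spironolactone and 22.0 CPM with non-loaded microspheres (edgeR adjusted p = 0.0512). Gng10 averaged 25.7 CPM with spironolactone and 32.6 CPM with non-loaded microspheres (edgeR adjusted p = 0.0889). Trpm3 measured 179.2 CPM with spironolactone and 176.6 CPM with non-loaded microspheres (0.02 ± 0.06, edgeR adjusted p = 0.921).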

How the data were processed

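RNA sequencing tables of 6 rat neuroretina samples were used, 3 per group, grouped by the labels' treatment field. Per the labels' protocols, column-purified and DNase-treated total RNA went into a stranded mRNA library kit. Per the submitters' processing notes, the rn6 genome and the tools RSEM 1.2.28, STAR 2.5.3a, Trimmomatic and FastQC were used, with no roles named. Neither annotation version nor strand setting is given in the sources used here. The authors deposited expected counts per gene, unnormalised, beside TPM and FPKM, per the file headers; FPKM was not used here. Expected counts were rounded to whole numbers, filtered with filterByExpr (at least 99.91% of each library's counts kept) and tested with edgeR 4.0.16 (R 4.3.3; two-sided glmQLFTest after glmQLFit with TMM factors). The p-values were adjusted by Benjamini-Hochberg over 13242 genes, with a threshold of 0.05. Fold changes are spironolactone over non-loaded. The SE is the size of the log2 fold change over the square root of F, and 95% intervals use the t distribution with the fit's degrees of freedom. CPM carry the TMM factors. TPM divide by effective length, which is uncertain for short transcripts.

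The members and lists were chosen with earlier results of these data known. The genes named are all members, any called gene and the 4 genes with the smallest p of the lists described, and the 5 genes most like the members' mean pattern; others, among them marker genes, relatives and list genes named with their role, were named for their level or function after the values were seen. Alternatives were other scalings, DESeq2 1.42.0, limma-voom (limma 3.58.1), robust shrinkage, other filters, an offset for effective length, limma-trend on log2(TPM + 1) or log2(TPM + 0.1), each library left out, and a covariate for the sample title's number. The test was checked on simulated counts in 5 draws with 200 changed genes besides the members; 7.75% of calls were false. No pair of libraries matched within counting noise (chi-square per gene between 4.00 and 16.0). A few genes of the lists are not reported by name and enter only the counts.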

Additional observations from a re-analysis of the deposited data

How the results depend on the processing

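In each of the 18 alternatives 0 members were called, and 136 of 144 member fold changes kept their direction. With a library left out, the log2 fold change of Grm6 ran from −0.060 (without non-loaded replicate 3) to 0.011 (without non-loaded replicate 2). That of Nyx was −0.176 at the lowest (without spironolactone replicate 1) and 0.027 at the highest, when non-loaded replicate 1 was dropped. The other members kept their direction with a library left out: Trpm1 lay between −0.153 and −0.046, Gpr179 between −0.122 and −0.033, Gng13 between 0.080 and 0.289, Prkca between 0.014 and 0.140, Pcp2 between 0.0048 and 0.161 and Cabp5 between 0.0064 and 0.109. An unadjusted p below 0.05 appeared for Gng13 and Pcp2 without spironolactone replicate 1, Trpm1 without spironolactone replicate 3, Gng13 without non-loaded replicate 2 and Nyx with the title number. With the sample title's number as a covariate Grm6 was at 0.040, Nyx at 0.785, Gpr179 at 0.117, Gng13 at −0.164, Prkca at −0.0029 and Pcp2 at −0.063; on the photoreceptor side Elfn1 was at −0.041, Cacnb2 at −0.097, Cabp4 at −0.042 and Slc17a7 at 0.033, each of the opposite sign. That number follows the group (r = 0.953), so the fit cannot separate them. Over all tested genes 348 were called (247 higher, 101 lower), against 602 with no filter, 100 (82 and 18) on log2(TPM + 1), 95 (79 and 16) on log2(TPM + 0.1) and 0 with the title number (562 unadjusted). Leaving out a library gave 111 (without spironolactone replicate 2) to 621 (without spironolactone replicate 1). The count was 146 without spironolactone replicate 3, 157 when non-loaded replicate 2 was dropped and 124 when non-loaded replicate 1 was. For the photoreceptor side of the synapse the 0 calls became 4 with DESeq2, robust shrinkage or no filter, 1 with library totals or limma-voom, and 0 to 3 without a library (3 without non-loaded replicate 3, 1 without spironolactone replicate 1). For the relatives they became 2 with DESeq2 or robust shrinkage, 3 with no filter and 0 to 3 without a library (3 without spironolactone replicate 1). The cause was not tested. The postsynaptic partners and other bipolar genes had 0 calls in all 18. No paired analysis was possible because the labels give the groups no shared replicate numbers.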
